A study of Mus musculus with 12 samples.

Results

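The subject here is a split of 12 mouse lung arrays by the level of Acta1, the actin of skeletal muscle fibres. Acta1 was read on its 1 probe set. It lay above a log2 level of 9 on 7 arrays, called muscle-high, and at or below 9 on 5 arrays, called muscle-low. Because the sides were selected on a measured value, every difference between them is given as a description and carries no test. The levels are deposited log2 intensities, so a difference of 1 is a doubling. A gene counts as separated when no muscle-high level overlaps a muscle-low level and the means of the sides differ by at least 1.

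The labels name wild-type mice in 4 groups of 3 arrays, and all arrays hold total RNA of lung. The radiation group was taken 6 weeks after a single dose of 25 Gy. The simvastatin group received 10 mg/kg intraperitoneally, 3 times each week. The group called combined here received both, and the control group received vehicle. Simvastatin inhibits HMG-CoA reductase, the rate-limiting enzyme of cholesterol synthesis. Ages are given as 8 to 12 weeks for the treated groups and as 8 to 10 weeks for control, so age and treatment cannot be told apart in a comparison with control. The labels do not state that each array is a separate animal, and p-values then measure only the spread between arrays. By label, muscle-high arrays were combined 1 and 2, radiation 1 and 2, and all 3 controls. The muscle-low arrays were combined 3, radiation 3 and all 3 simvastatin arrays. The split and the labels are therefore not independent: no simvastatin array was muscle-high and no control was muscle-low.

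Simvastatin 1, simvastatin 3 and combined 3 were nearly identical. Over 10370 bright probe sets the SD of their pairwise log2 differences was 0.111 to 0.118, against 0.337 or more in the 63 other pairs of arrays. The 3 arrays were averaged to 1 sample, called the averaged sample below, which left 10 samples, 7 muscle-high and 3 muscle-low. Eif2s3y, a Y-linked gene, was at 10.24 on control 3 and 10.39 on radiation 1 and at 3.46 or below on the other 10 arrays, and the labels give no sex. The radiation labels were set against Cdkn1a and Eda2r, p53 targets that respond to radiation. Control 3 and simvastatin 2, labelled as not irradiated, had Cdkn1a at 13.01 and 13.36 and Eda2r at 7.49 and 8.28. Combined 3, labelled as irradiated, had them at 11.18 and 4.33, while the other 5 irradiated arrays had 13.12 to 13.42 and 7.67 to 8.43. These 3 arrays thus went against their labels in both genes. Whether labels were exchanged was not tested, and every group is named here as labelled. The lung label was checked on every array. Sftpc, the surfactant protein of alveolar type 2 cells, lay between 15.57 and 15.84 on muscle-high arrays and between 15.76 and 15.81 in muscle-low samples.

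Skeletal muscle fibres contract when calcium released from the sarcoplasmic reticulum binds troponin on thin filaments of Acta1, which frees myosin heavy chains to pull. Fibres of fast and slow type use different isoforms of myosin, troponin and calcium pump, so these transcripts also tell fibre types apart. Lung parenchyma has smooth muscle, and in the mouse the pulmonary veins carry cardiac-type muscle, but neither uses the fast skeletal isoforms as its main contractile proteins.

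Acta1 stood at 14.90 and 14.61 on combined 1 and 2, at 13.90 and 12.79 on radiation 1 and 2, and at 14.35, 14.26 and 13.06 on the 3 controls. It stood at 5.39 on radiation 3, 3.81 on simvastatin 2 and 5.12 in the averaged sample, whose 3 arrays read 4.43, 6.03 and 4.90. Nothing lay near the threshold: the lowest muscle-high array was at 12.79 and the highest muscle-low array at 6.03. The means were 13.98 ± 0.79 (SD, n = 7) and 4.77 ± 0.85 (SD, n = 3), a difference of 9.21.

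The other actins did not follow Acta1. Actc1, the cardiac actin, differed by 0.20 between the sides. The smooth muscle actins Acta2 and Actg2 differed by -0.17 and 0.31, and the cytoplasmic actins Actb and Actg1 by -0.036 and -0.16. None of these 5 was separated.

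Of 11602 genes that passed the filter on low levels, 151 (1.30%) were separated with the muscle-high side higher, and 4 (0.0345%) with the muscle-high side lower. The gene of Acta1 itself is among the 151. Their differences ran from just over 1 to 11.11. In 91 of the 151, every muscle-low sample was at or under log2 4.85, the median of all deposited values, which was used as the filter level. For those genes a difference depends on how the normalization treats signals near background. Combined 1 had the highest level for 59 of the 151 genes and combined 2 for 57, while control 3 had the lowest muscle-high level for 60 and radiation 2 for 43.

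The 4 lists of skeletal muscle genes held 49 genes that passed the filter, and 36 of these were separated, all with the muscle-high side higher. Among the contractile genes it was 20 of 22, with a median difference of 5.52 against 0.0057 over all genes. Among the genes of energy metabolism it was 9 of 13, with a median of 2.04. Among those of calcium handling and excitation it was 6 of 9, with a median of 2.26. Among the regulators it was 1 of 5, with a median of 0.97. In any list, a member that passed the filter only through the muscle-high arrays had to differ, so these counts describe the lists and support nothing further.

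Among the thin-filament genes Tnnc2, the calcium-binding troponin C of fast fibres, was at 14.19 and 13.98 on combined 1 and 2, 13.31 and 12.21 on radiation 1 and 2, and 13.84, 13.40 and 12.01 on the controls, against 2.17, 2.16 and 2.18 in the 3 muscle-low samples. Its sides were 9.83 apart at their nearest, and the difference of means was 11.11. Tnnt3, the fast troponin T, averaged 11.85 ± 0.94 (SD, n = 7) on the muscle-high side and 3.78 ± 0.72 (SD, n = 3) on the muscle-low side. Tnni2, the fast inhibitory troponin, averaged 11.47 ± 0.64 and 5.76 ± 0.19. Neb, the giant ruler protein nebulin, averaged 10.00 ± 1.09 and 2.79 ± 0.07.

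Thick-filament and Z-disc genes gave the same split. The fast myosin heavy chain Myh1 ran from 12.04 to 13.78 on muscle-high arrays, with a median of 13.31, and from 2.41 to 2.47 in muscle-low samples. The light chains Mylpf and Myl1 differed by 8.07 and 4.73. Mybpc2, the fast myosin-binding protein C, differed by 6.09. At the Z-disc, Myot differed by 7.70, Myoz1 by 5.32 and Actn3, the alpha-actinin of fast fibres, by 5.91. Myosin heavy chains are near-identical paralogs, and probe sets of 1 gene can read another. Another probe set of Myh1 gave 11.94 to 13.50 on muscle-high arrays, while a further one stayed between 2.25 and 2.48 on all 12 arrays. The 15 genes with the largest gap were all higher on every muscle-high array, as the heat map of their levels shows. Of these 15, only Asb5, an ankyrin-repeat protein with a SOCS box that is enriched in muscle, was on none of the marker lists.

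**Figure D1:**
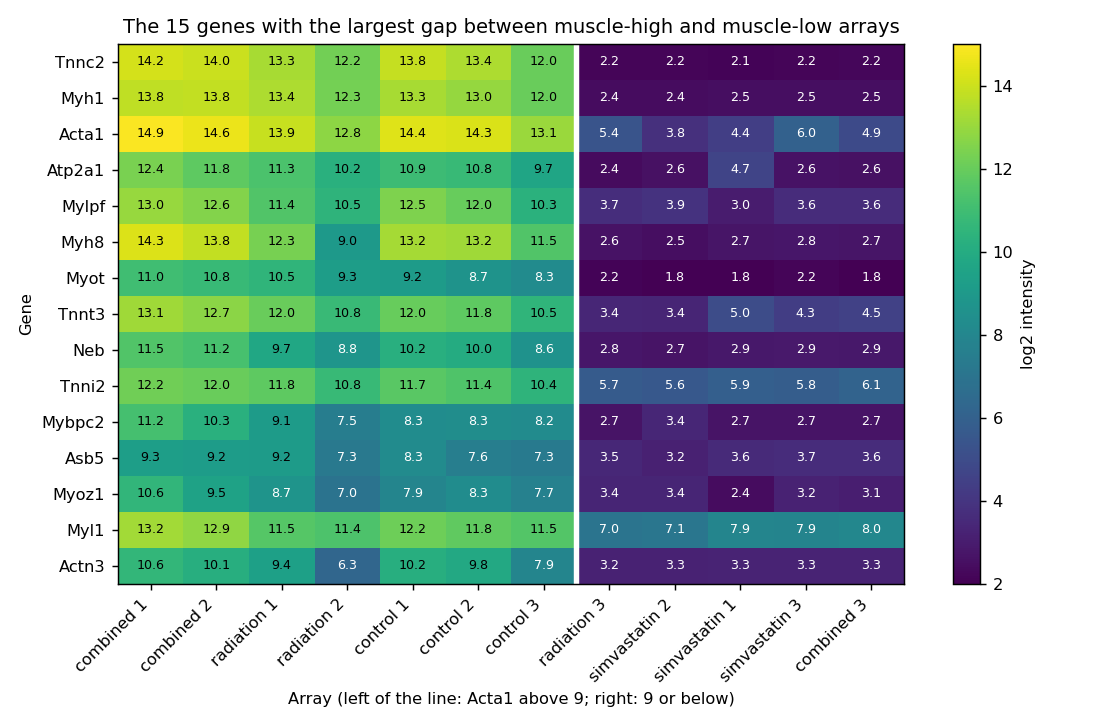
Heat map of log2 intensity for the 15 genes (rows) with the largest gap between sides, on 12 arrays (columns), muscle-high arrays to the left of the white line and muscle-low arrays to its right. Each cell prints its level, and Tnnc2 shows the widest step, from 12.01 or more on the left to 2.24 or less on the right.

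Calcium and energy genes followed. Atp2a1, the calcium pump of the fast-fibre sarcoplasmic reticulum, ran from 9.66 to 12.41 on muscle-high arrays, with a median of 10.89, against 2.38 to 3.29 in muscle-low samples. Ryr1, the calcium release channel, differed by 3.68. Casq1, which stores calcium in the reticulum, differed by 3.24, Jph1, which holds the reticulum to the surface membrane, by 2.34, and Cacng1, a subunit of the voltage sensor, by 2.26. Ckm, the muscle creatine kinase, averaged 12.09 ± 0.81 (SD, n = 7) against 7.48 ± 0.88 (SD, n = 3). The glycolytic and glycogen enzymes Pgam2, Pygm and Eno3 differed by 2.74, 2.49 and 2.32, and the AMP deaminase Ampd1 by 2.28. Pgam2, Pygm and Eno3 lay above the filter level in every muscle-low sample too, Eno3 between 9.17 and 10.23.

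The transcription factors that start the muscle programme were not part of the pattern. Myod1 lay between 1.84 and 1.93 on all 12 arrays and Myog at 2.66 or below, both under the filter level. Myf6, the factor kept in adult fibres, did not pass the filter but did not overlap either. It ran from 2.43 to 5.25 on muscle-high arrays and from 2.29 to 2.35 in muscle-low samples. Of the regulators that passed the filter, Cav3, the muscle caveolin, was separated with a difference of 1.02. Smyd1, Csrp3 and Mef2c differed by 1.95, 0.97 and 0.46 with overlap, and Dmd, the dystrophin gene, by -0.22.

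Serum response factor binds CArG boxes and the MEF2 factors bind MEF2 sites in muscle promoters. Of the 15 genes with the widest gaps, 9 had a promoter used here, 2 with a CArG box and 2 with a MEF2 site. Short promoter sequences are shown for these 4 genes only, so they are picked for holding a motif. The promoters of Tnnc2, Atp2a1, Mylpf, Mybpc2 and Myl1 held neither. The sequences are RefSeq's on build GRCm38.p6, from 250 bases before to 50 after the annotated start, printed 5′ to 3′ on the gene's strand. They cover chr8:123894726-123895025 on the minus strand for Acta1, chr8:54550081-54550380 on the plus strand for Asb5, chr11:67199852-67200151 on the plus strand for Myh1 and chr11:67276874-67277173 on the plus strand for Myh8. Capitals mark a CArG box in Acta1 and Asb5, a MEF2 site in Myh1 and Myh8, and TATAAA on either strand.
Acta1: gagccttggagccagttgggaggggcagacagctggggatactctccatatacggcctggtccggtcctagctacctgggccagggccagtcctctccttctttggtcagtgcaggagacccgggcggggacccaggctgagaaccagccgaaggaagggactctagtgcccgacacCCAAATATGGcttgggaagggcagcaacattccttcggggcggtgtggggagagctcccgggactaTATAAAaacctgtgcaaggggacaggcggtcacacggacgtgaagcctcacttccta
Asb5: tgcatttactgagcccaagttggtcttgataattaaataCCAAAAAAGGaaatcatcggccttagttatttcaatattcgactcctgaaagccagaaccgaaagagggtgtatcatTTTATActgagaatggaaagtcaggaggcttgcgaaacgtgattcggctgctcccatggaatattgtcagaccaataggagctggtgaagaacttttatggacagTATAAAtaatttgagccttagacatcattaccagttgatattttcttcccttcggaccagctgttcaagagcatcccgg
Myh1: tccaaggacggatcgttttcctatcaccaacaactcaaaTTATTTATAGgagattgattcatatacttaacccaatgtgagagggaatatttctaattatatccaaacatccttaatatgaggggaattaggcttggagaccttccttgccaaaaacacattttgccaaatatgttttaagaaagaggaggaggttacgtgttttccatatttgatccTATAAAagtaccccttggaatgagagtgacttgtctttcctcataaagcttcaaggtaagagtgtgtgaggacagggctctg
Myh8: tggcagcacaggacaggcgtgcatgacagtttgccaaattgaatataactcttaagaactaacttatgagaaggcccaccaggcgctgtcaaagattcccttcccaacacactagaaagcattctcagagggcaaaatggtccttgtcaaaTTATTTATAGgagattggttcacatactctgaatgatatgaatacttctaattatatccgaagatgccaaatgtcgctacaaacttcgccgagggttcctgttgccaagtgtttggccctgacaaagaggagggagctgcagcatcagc
The CArG box began at -73 in Acta1 and at -211 in Asb5, and the MEF2 site at -211 in Myh1 and at -99 in Myh8, counted from the start. In both myosin genes the MEF2 site overlaps a TATAAA read on the other strand. Of the 36 separated genes of the muscle lists, 25 had a promoter used here. A CArG box was found in 2 of the 25 (8%) and a MEF2 site in 6 (24%), against 1.57% and 3.26% of all 27025 promoters. CANNTG, the E-box, was found in 23 of the 25 (92%) against 72.1% of all, and TATAAA in 6 (24%) against 14.2%. Both strands were searched for each motif, and a match is a run of letters, not a shown binding site.

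The muscle-high arrays differed among themselves in fibre-type genes. Myh2, the fast IIa heavy chain, was at 8.40 on radiation 1 and 9.64 on radiation 2, and at 2.72 or below on the other 10 arrays. Myl2, the regulatory light chain of slow fibres and heart ventricle, was at 7.37 on radiation 1 and 9.99 on radiation 2, and at 1.96 or below on the other 10 arrays. With high levels on 2 arrays, neither gene passed the filter. Ankrd2, a stretch-responsive gene of slow fibres, had its highest levels on the same arrays, 4.50 on radiation 1 and 6.11 on radiation 2. Tnnt1, the slow troponin T, was at 6.00 and 7.33 there and at 5.14 on control 3, and at 3.91 or below on combined 1 and 2 and controls 1 and 2. It counted as separated with its sides only 0.0042 apart at their nearest, and only after averaging. Combined 3, an array of the averaged sample, was at 3.99, above combined 1 and 2 and controls 1 and 2. Tnnt1, Myh4 and Myh7 were picked out after their levels were seen.

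The perinatal and the fast IIb myosin were lowest of the muscle-high arrays on radiation 2. Myh8, the perinatal heavy chain, was at 9.02 on radiation 2 and between 11.46 and 14.29 on the other 6 muscle-high arrays. Myh4, the fast IIb heavy chain, was at 4.35 on radiation 2 and 4.75 on control 3, and between 7.66 and 8.92 on the other 5. Actn3 was also lowest on those 2 arrays, at 6.28 and 7.91. Whether these levels come from fewer fibres of a type or from less RNA per fibre cannot be told apart in bulk tissue, here and in every list below. Radiation 2 and control 3 also had the lowest contractile list means of the muscle-high arrays, 9.35 and 9.42, and that list includes Myh4, Myh8 and Actn3. The calcium, energy and regulator lists were instead lowest of the muscle-high arrays on control 2, at 7.25, 8.97 and 8.44. The regulator list was highest on control 3, at 9.51. Myh1 was at 12.30 on radiation 2 and 12.04 on control 3. On radiation 1, also high in Myh2, Myh4 was at 7.66 and Myh8 at 12.33. The bar plot of 6 fibre-type genes shows these levels.

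**Figure D2:**
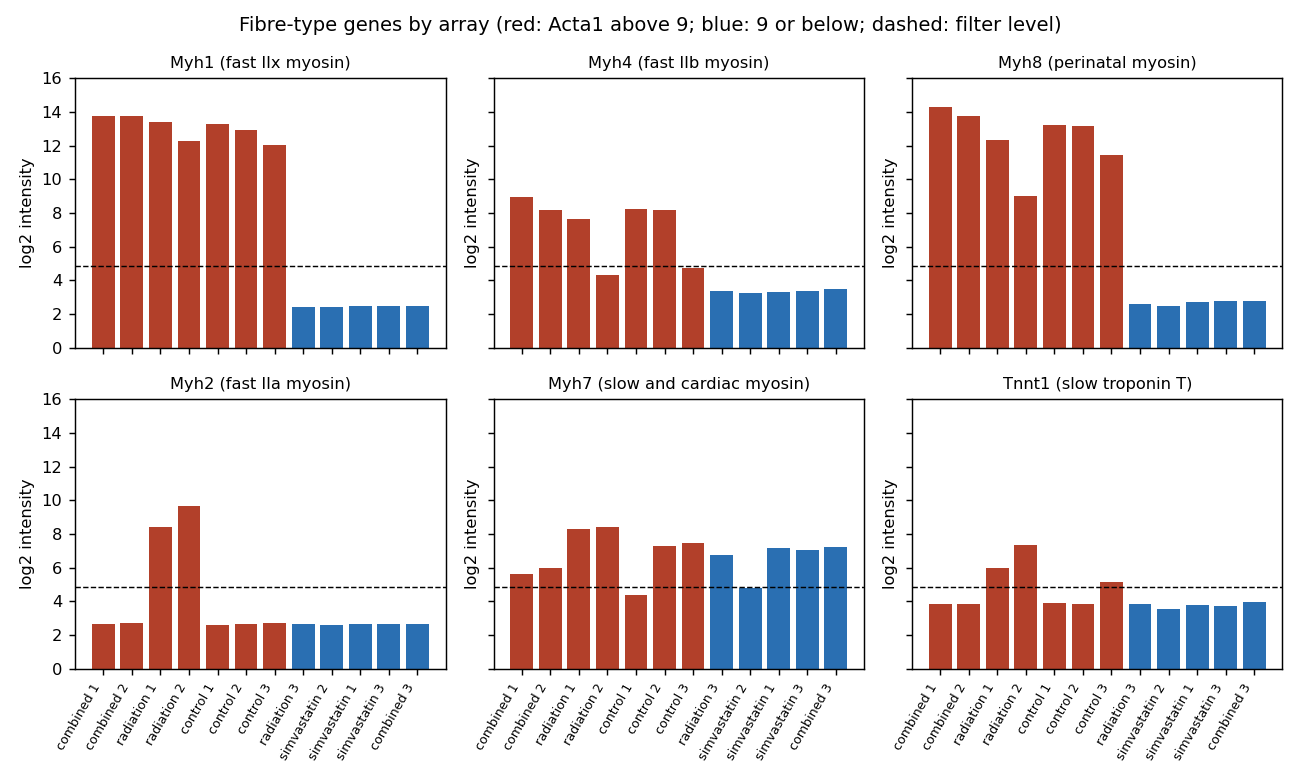
Bars give the log2 intensity of Myh1, Myh4, Myh8, Myh2, Myh7 and Tnnt1 on each of 12 arrays, red for muscle-high and blue for muscle-low, with the filter level of 4.85 dashed. Myh1 is above 12 on every red bar, while Myh2 exceeds the filter level on radiation 1 and radiation 2 only.

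With 1 exception, cardiac and smooth muscle genes were not separated. Of 15 cardiac genes that passed the filter, 1 was separated, Myl3, a light chain shared by slow skeletal fibres and ventricle. It was at 11.95 ± 1.25 (SD, n = 7) against 7.04 ± 0.95 (SD, n = 3). Its muscle-high levels were lowest on radiation 2, control 3 and radiation 1, at 10.12, 10.95 and 11.12, the arrays highest in Tnnt1. They were highest on combined 1 and 2, at 13.52 and 13.14. The median difference of the list was 0.35, or -0.057 without simvastatin 2, and 14 of the 15 had a higher mean on the muscle-high side. The mean level of the cardiac list was lowest on control 2, at 9.45, and on simvastatin 2, at 9.66, 1 array of each side, and between 10.80 and 12.12 on the other 10 arrays. Nppa, the atrial natriuretic peptide, showed it most, at 6.28 on control 2 and 8.81 on simvastatin 2 against 11.92 to 13.92 elsewhere. Of 11 smooth muscle genes none was separated, and their median difference was -0.17.

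Genes of stratified squamous epithelium, the lining of the mouse oesophagus and skin, were the next group. Of 23 such genes that passed the filter, 13 were separated, against 1.30% of all genes, and the median difference was 3.998, or 3.44 without control 1. Many of the 13 were separated by a narrow gap. The sides were 0.27 apart at their nearest in Krt4, 0.14 in Krt13 and 0.0035 in Tgm3, against 1.40 in Krt15, the widest. Simvastatin 3, an array of the averaged sample, lay above control 3 in Tgm3 (1.8996 against 1.897), Pkp1 and Dsc3. Krt4, Krt13 and Krtdap, given next, passed the filter only through muscle-high arrays. Krt4, a keratin of the layers above the basal one, was at 13.77 and 15.50 on combined 1 and 2, 13.05 and 3.07 on radiation 1 and 2, and 15.19, 15.18 and 8.17 on the controls, against 2.75, 2.70 and 2.80 in muscle-low samples. Its partner Krt13 ran from 3.20 to 15.11 on muscle-high arrays, with a median of 12.67, against 2.39 to 3.06 in muscle-low samples. Krtdap, a secreted protein of differentiating keratinocytes, ran from 2.59 to 14.20 against 2.27 to 2.31. Radiation 2 was the lowest muscle-high array for all 3 genes and control 3 the next lowest.

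The squamous signal thus set 5 muscle-high arrays apart from the other 2. The mean level of the list was 8.70 and 11.02 on combined 1 and 2, 8.28 on radiation 1 and 10.64 and 10.36 on controls 1 and 2. It was 5.18 on radiation 2 and 5.58 on control 3, close to the 4.53 to 4.86 of the muscle-low samples. Sprr3 and Rptn, cornified-envelope genes with differences of 5.33 and 5.21, overlapped between sides because of such arrays. The basal-layer genes Krt5 and Krt14 differed by 4.22 and 4.53 and Trp63, the transcription factor of basal cells, by 3.07. Outside the lists, 7 of the 101 other separated genes were late cornified envelope genes, among them Lce3f at 7.76, and Mt4, a metallothionein of squamous epithelia, differed by 7.59. The sides of Lce3f and Mt4 were only 0.039 and 0.12 apart at their nearest. The basal-layer genes and these were singled out after their levels were seen, and the late cornified envelope genes are close paralogs that probe sets can confuse.

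Of the 13 separated squamous genes, 7 had a promoter used here, and none of the 7 held a CArG box or a MEF2 site. TATAAA was found in 3 of them.

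**Figure D3:**
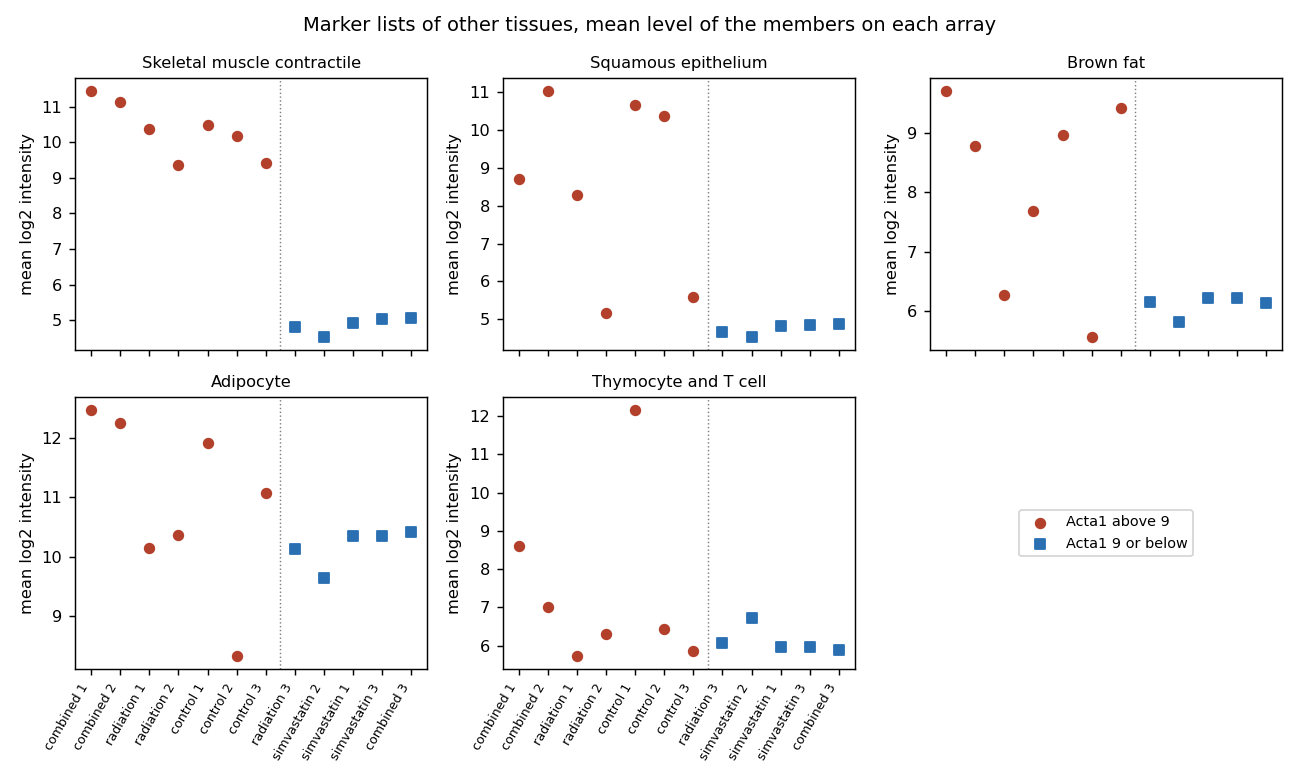
Mean log2 intensity of the filtered members of 5 marker lists of other tissues (panels) on each of 12 arrays, red points muscle-high and blue squares muscle-low. The contractile list is above 9 on all red points, while the squamous, brown fat, adipocyte and thymocyte lists are high on differing subsets of them.

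Fat genes marked another subset of arrays. Ucp1, the uncoupling protein that defines brown fat, was at 12.58 and 10.49 on combined 1 and 2, 2.26 and 8.74 on radiation 1 and 2, and 12.89, 2.20 and 12.28 on the controls, against 2.24, 2.28 and 2.25 in muscle-low samples. It was thus high on 5 muscle-high arrays and at the muscle-low level on radiation 1 and control 2. Cidea, Otop1, Cox7a1 and Dio2, also on the brown fat list, differed by 3.17, 2.76, 1.81 and 1.22. Cox7a1 did not follow Ucp1 on radiation 1, at 9.77 there against 8.13 to 9.09 in muscle-low samples. On control 2 Cox7a1 was at 8.40. None of the 8 brown fat genes was separated, and the median difference was 1.51. Control 3 and radiation 2, which were low in squamous genes, were among the arrays high in Ucp1.

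General adipocyte genes had a median difference of 0.66, and 0 of 14 were separated. Dgat2, Gpd1, Cidec, Pck1 and Plin4, genes of lipid synthesis and storage, differed by 2.06, 1.75, 1.57, 1.41 and 1.23. Pck1 ran from 3.69 on control 2 to 12.86 on combined 1, against 6.97 to 9.56 in muscle-low samples. Fat was therefore read on muscle-low arrays too, and control 2 was below all of them.

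Thymocyte and T cell genes were high on control 1 and, less so, on combined 1. Rag1, which recombines antigen receptor genes in immature lymphocytes, was at 14.42 on control 1 and 11.05 on combined 1, and at 2.33 or below on the other 10 arrays, so it did not pass the filter. Cd8b1 was at 12.74 on control 1, 8.90 on combined 1 and 5.62 on combined 2, and between 3.01 and 5.18 on the other 9. The mean level of the list was 12.16 on control 1, 8.59 on combined 1 and between 5.72 and 7.01 on the other muscle-high arrays, against 5.94 to 6.73 in muscle-low samples. Its median difference of 1.14 became 0.37 without control 1, and 0 of 9 genes were separated. B and plasma cell genes, Schwann cell genes and mesothelial genes had median differences of 0.060, 0.14 and -0.25, with no gene separated.

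**Figure D4:**
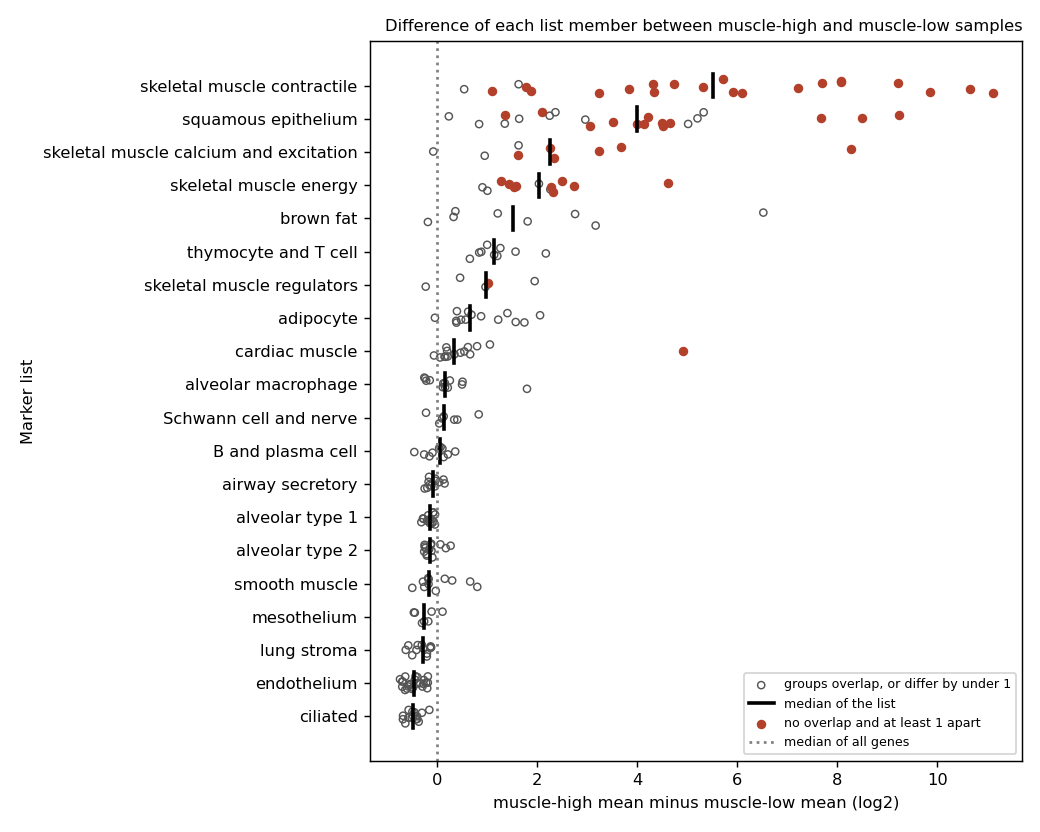
Each point is 1 gene, placed by its muscle-high mean minus its muscle-low mean on the log2 scale, for marker lists (rows) ordered by their median (black bar). Filled points are separated genes, found in the 4 skeletal muscle lists, the squamous list and, for Myl3, the cardiac list, and the dotted line is the median of all genes, 0.0057.

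Lung genes that went against the split did so by small amounts. Of 105 lung-list genes that passed the filter, 90 had a lower mean on the muscle-high side, against 49.0% of all 11602 genes, and 0 were separated. Without control 1 it was 69 of the 105, against 42.8% of all genes. The members of a list share their arrays and are not independent of each other. On control 1, 6 of the 7 lung lists had their lowest muscle-high level, the airway secretory list being the exception: alveolar type 1 genes averaged 11.69 there and 12.46 to 13.20 on the other muscle-high arrays.

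Endothelial genes held their direction with and without control 1. All 24 of the list had a lower mean on the muscle-high side, with a median difference of -0.46 with control 1 and of -0.35 without it. The mean level of the list was 11.59 and 11.89 on combined 1 and 2, 11.90 and 11.86 on radiation 1 and 2, and 11.15, 12.56 and 11.70 on the controls, against 12.24, 12.29 and 12.25 in muscle-low samples. Control 2 was above every muscle-low sample. The other 6 muscle-high arrays were below every muscle-low sample.

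Sox17, a transcription factor of arterial endothelium, differed by -0.74. Tie1, a receptor of vessel remodelling, and Robo4, which steadies vessel walls, both differed by -0.69, Egfl7, a factor secreted by endothelium, by -0.68, and Aplnr, the apelin receptor, by -0.64. Cldn5 and Egfl7, noted after their levels were seen, were the 2 of 105 lung-list genes whose muscle-high levels all lay below the muscle-low ones, against 0.750% of all genes. They differed by less than 1. Cldn5, the tight-junction claudin of endothelium, ran from 11.84 to 13.11 on muscle-high arrays and from 13.18 to 13.41 in muscle-low samples. Egfl7 ran from 11.23 to 12.44 against 12.52 to 12.74. Without control 2, left out because it was seen to be the array above the muscle-low samples, 7 of the 24 endothelial genes lay wholly below, against 1.87% of all genes.

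Ciliated cell genes were lower in mean for 15 of 15, with a median difference of -0.48, or -0.20 without control 1. Tekt4, a protein of ciliary microtubules, ran from 3.75 to 8.21 on muscle-high arrays, with a median of 6.98, against 6.66 to 7.92 in muscle-low samples. The axonemal dyneins Dnah9, Dnah5 and Dnaic1 differed by -0.68, -0.57 and -0.57, and the adenylate kinase Ak7 by -0.63. The list averaged 7.78 on control 1 and 8.94 on control 2, and between 9.42 and 10.17 on the other 5 muscle-high arrays, against 9.27 to 10.16 in muscle-low samples. Ciliated genes were thus low on 2 controls, and the other muscle-high arrays overlapped the muscle-low samples.

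Lung stroma genes were lower for 12 of 12, with a median difference of -0.28, or -0.16 and 10 of 12 without control 1. Foxf1, a transcription factor of lung mesenchyme, differed by -0.62, Fgfr4 by -0.57 and Vegfd by -0.49. Alveolar type 1 genes were lower for 15 of 15, with a median of -0.13, but without control 1 for 4 of 15, with a median of 0.038. Rtkn2, Spock2 and Igfbp2 had the largest differences of that list, at -0.31, -0.28 and -0.27. Alveolar type 2 and airway secretory genes had medians of -0.14 and -0.074, with 11 of 14 and 9 of 12 lower. Without control 1 these became -0.026 and -0.060, with 8 of 14 and 8 of 12 lower.

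Alveolar macrophage genes were lower for 4 of 13 and had a median difference of 0.16. Marco, a scavenger receptor, had the largest, at 1.80. It ran from 4.07 to 8.09 on muscle-high arrays, against 2.10 on radiation 3, 2.29 on simvastatin 2 and 7.01 in the averaged sample, so the sides overlapped.

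**Figure D5:**
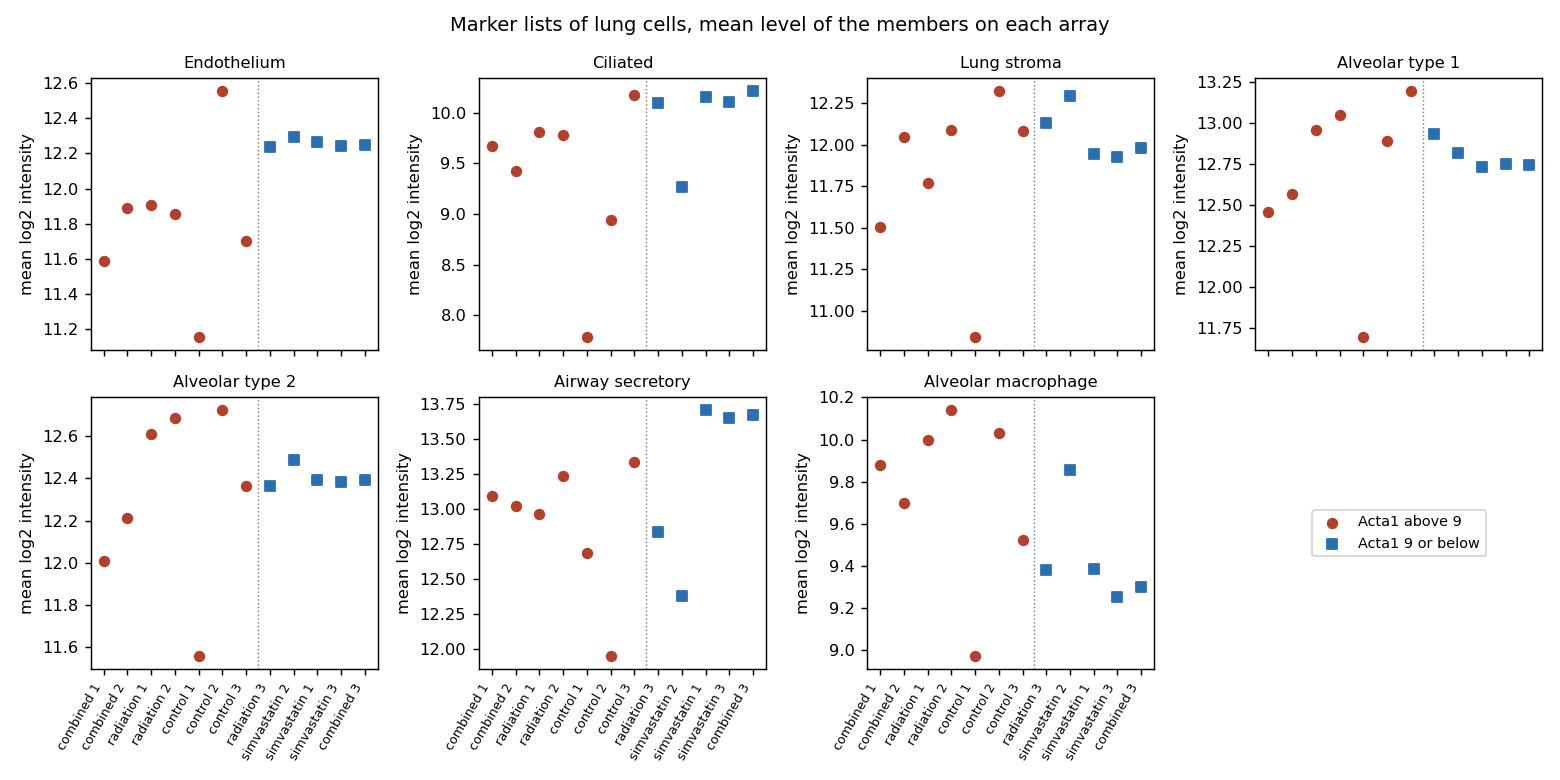
Mean log2 intensity of the filtered members of 7 marker lists of lung cells (panels) on each of 12 arrays, red circles muscle-high and blue squares muscle-low, with each vertical axis cut to its own range. Control 1 is the lowest red point in 6 of the 7 panels, and in the endothelial panel control 2 is the only red point above the blue ones.

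The 4 separated genes that were lower on the muscle-high side came from none of the lists. A330023F24Rik, a non-coding transcript that hosts microRNAs of the miR-29 family, was at 7.80 and 7.57 on combined 1 and 2, 6.29 and 4.93 on radiation 1 and 2, and 6.47, 7.65 and 5.39 on the controls, against 8.45, 8.69 and 8.18 in muscle-low samples. Slc6a20a, a proline transporter, differed by -1.31, 9530057J20Rik by -1.09, and Shank3, a scaffold best known from synapses, by -1.02. The sides of A330023F24Rik were 0.38 apart at their nearest, the widest gap in this direction among the 11602 genes.

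Among the 15 widest gaps in this direction, differences of means ran from -1.85 to -0.43. They included the dynein heavy chain Dnah12 at -0.90, the protein kinase Pkn3 at -0.81, the flippase Atp10d at -0.84, and Atf4, a transcription factor of the integrated stress response, at 11.93 ± 0.17 (SD, n = 7) against 12.48 ± 0.12 (SD, n = 3). Also among them were the semaphorin Sema4c at -0.74, the ceramidase Acer2 at -0.74, the G-protein modulator Gpsm1 at -0.51, the syntaxin Stx3 at -0.49, the sorting nexin Snx18 at -0.44 and the RNA-binding protein Cpeb4 at -0.43. Of 3384 filtered probe sets without a single gene symbol, 11 were separated with the muscle-high side higher and 55 with it lower. Among the 11602 genes it was 151 (1.30%) and 4 (0.0345%), so the larger count lay in the opposite direction there.

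The labels were not used to make the split, so the groups as labelled could be tested, with control 3, simvastatin 2 and combined 3 going against their labels in Cdkn1a and Eda2r. Radiation and combined arrays together were set against control over all arrays, with simvastatin 1 and 3 averaged and combined 3 kept under its label. Of 11602 genes, 0% passed an adjusted p of 0.05 in limma's moderated test, and no adjusted p was below 0.908. Before adjustment 466 had a p under 0.05, fewer than the share of 0.05 that chance alone would mark. Acta1 averaged 11.47 ± 5.69 in the combined group, 10.69 ± 4.62 in the radiation group and 13.89 ± 0.72 in control (SD, n = 3 each), a fitted difference of -2.81 ± 2.39 (SE). The genes of lowest p were Mbd1, Gfpt2, F3, Tsc22d3 and Klf15, with differences of 0.85, 1.53, 0.88, 1.44 and 1.62. Without control 3, 1 gene passed, Aoc1, a diamine oxidase, at 3.72, and without combined 3 or simvastatin 2 none did. Cdkn1a and Eda2r differed by 1.59 ± 0.72 and 2.45 ± 1.15 (SE), both at an adjusted p of 0.908.

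The same comparison among muscle-high arrays set 4 irradiated arrays against 3 controls, with the choice of arrays resting on Acta1. Again 0% of genes passed, 390 had a p under 0.05 before adjustment, and the smallest adjusted p, 0.669, was that of Ighg3, an immunoglobulin heavy chain gene, at 4.30 ± 0.45 (SE). Ighg3 was at 11.49 and 12.07 on combined 1 and 2 and 7.67 and 7.86 on radiation 1 and 2, against 5.99, 4.40 and 6.02 on the controls. Rpl3l, a ribosomal protein of striated muscle, differed by 2.05, Map3k6 by 2.49, the metallothionein Mt2 by 1.51 and Cth by 1.09. Cdkn1a differed by 1.90 ± 0.65 and Eda2r by 2.99 ± 0.96 (SE), both at an adjusted p of 0.942. Acta1 differed by 0.16 ± 0.41 (SE), and as all these arrays were chosen for a high Acta1, this difference decides nothing.

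Simvastatin minus control also gave 0% of genes, with 214 at a p under 0.05 before adjustment and none below 0.990 after it. Acta1 averaged 4.52 ± 1.01 (SD, n = 2) in the simvastatin group and 13.89 ± 0.72 (SD, n = 3) in control, a difference of -9.37 ± 3.09 (SE). Its p in limma was 0.0133 before adjustment and 0.990 after it. This comparison was chosen with the groups known to lie on opposite sides of the Acta1 threshold. Differences in Acta1 and in genes that go with the split were therefore fixed beforehand, and the p of Acta1 decides nothing. All 4 groups shared 1 estimate of the spread in this fit. The SE of Acta1 thus also holds its spread within the radiation and combined groups, where its SDs were 4.62 and 5.69. The genes of lowest p were Ints1, Errfi1, Rnf227, Arrdc3 and Mbd1, with differences of -1.15, 1.45, -1.84, 0.86 and 0.69. These 3 comparisons share the control arrays. In each, the genes under 0.05 before adjustment were fewer than the share of 0.05 that chance alone would mark. The contractile list had a median difference of -1.09 in the first, 0.53 among muscle-high arrays and -5.09 for simvastatin, and the squamous list had -1.23, -0.35 and -3.91. In each comparison 0 of the 22 contractile and 0 of the 23 squamous genes passed the test.

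The p53 targets cut across the split. Cdkn1a was at 13.19 and 13.17 on combined 1 and 2, 13.36 and 13.12 on radiation 1 and 2, and 10.24, 10.69 and 13.01 on the controls, against 13.42 on radiation 3, 13.36 on simvastatin 2 and 11.13 in the averaged sample. High and low levels thus stood on both sides of the Acta1 threshold, and on both sides of the radiation labels. The median difference of 21 p53 targets between sides was -0.076, or 0.065 without control 1.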

How the data were processed

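Total RNA of 12 lung samples was read on Affymetrix mouse arrays. The deposited values are log2 intensities, made with MAS5 and GCRMA per the submitters' processing notes, with versions not given in the sources used here. In all, 45101 probe sets were listed, and array medians were 4.42 to 5.12. Background correction affects differences of dim genes. Controls (64) were left out, and 34958 probe sets had 1 gene symbol, 932 several and 9211 none. A probe set was kept above log2 4.85 on at least 3 arrays, and the brightest stood for its gene. Labelled groups were fitted in R 4.3.3 with limma 3.58.1 (eBayes with trend, Benjamini-Hochberg over all genes), tested on simulated data, with 11 samples and 7 residual degrees of freedom over all arrays and 7 and 4 among muscle-high arrays. The number of arrays limits the precision.

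The members and the 25 marker lists (406 genes, 283 kept) were chosen with earlier results of these data known. The cartilage, tendon, thyroid and liver lists had under 3 kept genes and were not described. Named genes were the actins, the 15 widest gaps each way, up to 5 members of a list by size of difference, members below the filter, and, per comparison, the 5 lowest p and 2 p53 targets. Alternatives were the scaling, the filter, a floor, the averaging, the probe set rule, a replicate block and leaving out each sample.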

Additional observations from a re-analysis of the deposited data

Results flagged for a closer look

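Among 51 genes and list levels examined over the 7 muscle-high arrays, 6 had 1 array far from the others by Dixon's criterion, and chance alone marks about 1 in 20. All 6 belong to the genes that were lower on the muscle-high side. In 5 of them control 1 was the low array: Dnah12 at 5.46, Dennd5b at 8.25, Acer2 at 9.97, Cpeb4 at 12.12 and Stx3 at 10.38, all log2 levels. In Glb1l, a galactosidase-like gene, radiation 2 was lowest at 4.83. The mean level of 6 of the 7 lung lists was also lowest of the muscle-high arrays on control 1, the airway secretory list being the exception.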

How the results depend on the processing

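The sides were set once from the deposited values and kept in every alternative run, so these runs did not test the split. The difference of Acta1, the gene that made the split, ran from 8.72 to 9.52. The count of 151 genes separated with the muscle-high side higher became 86 when levels under the filter were set to it, a choice made after seeing the data, and 146 to 232 when 1 sample was left out, with 232 without the averaged sample. The count of 4 in the other direction became 9 with each array centred on its median and 9 with the mean of all probe sets of a gene, and 3 to 82 when 1 sample was left out: 24 without control 2, 9 without control 3, 15 without combined 1, 82 without simvastatin 2 and 19 without the averaged sample. The median changed sign in 8 lists under some alternative: alveolar type 1 to 0.038 without control 1 (-0.19 to 0.038 over all samples left out), cardiac muscle to -0.057 without simvastatin 2 (-0.057 to 0.73), and smooth muscle to 0.33 (-0.31 to 0.33), mesothelium to 0.32 (-0.84 to 0.32) and alveolar macrophage to -0.20 (-0.20 to 0.29) without the averaged sample. The other 3 started near 0: airway secretory ranged from -0.27 to 0.25, B and plasma cell from -0.18 to 0.27 and p53 targets from -0.41 to 0.21. The cause was not tested. The endothelial median stayed between -0.61 and -0.35 and the contractile median between 4.25 and 5.70. With centring, the median over all genes was 0.078.

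In the labelled comparisons the counts stayed at 0 with these exceptions. Radiation and combined minus control over all arrays gave 1 gene without control 3 (0 to 1 over all samples left out), Aoc1 at a difference of 3.72 and an adjusted p of 0.00210 in limma. Among muscle-high arrays it gave 1 gene with no filter, Arc at 1.20 and 0.00742. The deviations of same-numbered arrays from their group means correlated at over 0.1 in 8 of 18 pairs (-0.26 to 0.41), among them all 3 pairs of combined and control arrays (0.32, 0.29 and 0.41), so the numbers did not pair the samples throughout. The replicate block gave 0 genes in all 3 comparisons, with Ighg3 at 4.58 and an adjusted p of 0.251.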
